A study of Homo sapiens with 12 samples.

Results

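The baseline expression profile of untreated L540 cells is described here from the 2 arrays titled as untreated, out of 12 arrays in the series. L540 is an established human Hodgkin lymphoma line that carries CD30 on its surface, and both arrays come from cultures of this single line. Genes were taken as expressed above background when at least 1 of their annotated probes had a detection p below 0.01 on both arrays, and they were ranked by the mean of the signals before normalization. By this rule 7539 of the 18846 genes with an annotated probe were detected (40.0%), through 9427 of 28082 annotated probes (33.6%). No treated group was set against the untreated cells.

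The study asked how L540 cells respond when CD30 is engaged. The untreated cultures, kept in IMDM with 10% serum and 5% CO2, were precultured for 16 h and then left without ligand or antibody. For how long is stated in conflicting ways, since the series text gives 8 h and calls the 24 h of the sample labels wrong, while the growth protocol has 24 h. The other 10 arrays hold L540 cells given the fusion protein CD30L-Fc or the anti-CD30 antibodies T104, T427, T408 or PW30, each at 10 µg/ml and in duplicate, and they serve here only for counts of detection and for the spread between duplicates. The series text has an antibody T428 where the labels have T408. The treated flasks received their protein in PBS, and the labels do not say if PBS alone was added to the untreated flasks.

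Hodgkin and Reed-Sternberg cells are the tumour cells of classic Hodgkin lymphoma. In most patients they descend from germinal centre B cells that have lost much of the B cell programme, and they are known for CD30, for constant activity of the NF-kB and JAK-STAT pathways and for secreted chemokines that draw in other immune cells. CD30, encoded by TNFRSF8, is a receptor of the tumour necrosis factor family that recruits TRAF adaptors and through them reaches NF-kB.

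Both arrays measured a similar range of signal, and wherever a gene is given 2 signals they are those of replicate 1 and replicate 2. Untreated replicates 1 and 2 had a median signal over all probes of 148.6 and 151.7, and detected 11278 and 11061 of 48780 probes, beside 10910 to 12005 on the other 10 arrays. The lowest signal that counted as detected was 253.4 on replicate 1 and 263.6 on replicate 2, and the highest signal was 71746 and 71759. Detected genes had a median signal of 1141 on replicate 1 and 1172 on replicate 2, and the genes that were not detected had 144.1 and 147.2. Olfactory receptors, which serve smell and are silent in most tissues, serve as a background, and 1 of 378 of these genes was detected (0.265%). That gene was OR52A5, at 319.9 and 326 on replicates 1 and 2, and it is named, after its value was seen, as the single one.

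The signal of the 7539 detected genes was spread over a wide range. Their mean signal was 307 at the 5th percentile, 1159 at the median and 12167 at the 95th percentile. A mean signal of at least 1000 was reached by 4100 genes (54.4% of those detected), one of at least 10000 by 479 genes (6.35%) and one of at least 50000 by 49 genes. At the low end 312 detected genes had a mean signal under 300. The genes just inside the threshold were BGLAP at 254 and 266, CD82 at 257 and 265 and C2orf68 at 258 and 264. Just outside it lay STK35 at 251 and 378, STIMATE at 246 and 356 and WWC3 at 249 and 342, each of which missed the threshold on replicate 1 alone. A probe's brightness depends on the probe as well as on the transcript, so signals are compared here between the 2 arrays for 1 gene, and an order of genes is an order of signal.

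The duplicates were close for nearly all genes. Replicates 1 and 2 were within 0.5 on the log2 scale for 7339 of the 7539 detected genes (97.3%), after the median difference was removed. Over the 9427 detected probes Pearson's r across probes was 0.991 and the SD of the log2 difference was 0.225, beside 0.163 to 0.20 in the duplicates of the other 5 groups. The untreated pair thus had the widest spread of the 6 pairs on this scale, and 3 of its probes were 2-fold apart where the other pairs had 0. The SD was 0.212 over the 1886 dimmest probes and 0.207 over the 1886 brightest, and reached 0.241 over 1885 probes with mean signals of 437 to 749. SNX10, a sorting nexin of the endosome, was the only detected gene more than 2-fold apart, at 1898 and 941. Its range over the other 10 arrays was 1287 to 2057, so replicate 2 lay below all of them. The next genes by size of the difference were ZNF577, OSBPL8, DMTF1, NOMO3, THEM6, BZW1, MANEA, TMEM168 and GLT8D1, of which THEM6 (776 and 1441) and GLT8D1 (409 and 734) were higher on replicate 2 and the others on replicate 1.

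**Figure D1:**
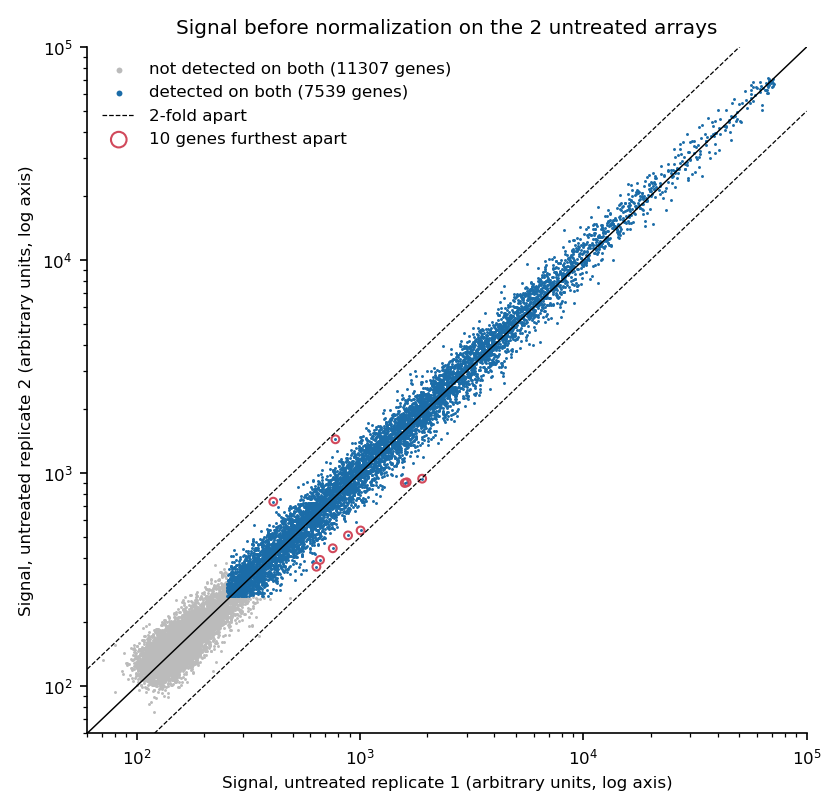
Signal before normalization on untreated replicate 1 (horizontal axis) and untreated replicate 2 (vertical axis), both logarithmic and in arbitrary units, 1 point per gene at its brightest probe. The 7539 detected genes (blue) lie along the line of equal signal, the 11307 other genes (grey) form a cloud mostly below 300, and the red rings mark the 10 detected genes furthest apart.

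Genes of protein synthesis and of the cytoskeleton made up most of the 30 brightest. FTL, the light chain of the iron store ferritin, led with a signal of 70402 and 70973 on replicates 1 and 2. It was followed by TPT1, a translationally controlled tumour protein, at 68151 and 70928 and by EEF1A1, the elongation factor that brings aminoacyl-tRNA to the ribosome, at 69790.2 and 69219.8. Ribosomal protein genes, counted by a symbol pattern, made up 14 of the 30 and 38 of the 100 brightest genes. RPS27, RPL38 and RPL41 were the first of them. The pattern left out RPL36AL, which had rank 98. The cytoskeleton was represented among the 30 by ACTG1, ACTB, PFN1, TMSB10 and TUBA1B. GAPDH of glycolysis stood at 66392 and 66871, and ATP5F1B of the mitochondrial ATP synthase at 66724 and 62750.2. The other 6 of the 30 were the inhibitory collagen receptor LAIR1, the lectin CLEC2D, the ciliary gene CLUAP1, the polyamine regulator OAZ1 and the pseudogenes SLC7A5P2 and RPL13AP20. LAIR1, CLUAP1 and SLC7A5P2 were each detected by only 1 of several probes. CLEC2D had 66034 and 63086 at its brightest probe, but 407 and 396 at its other detected probe.

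The order within this group was not fixed by 2 arrays. Signals of the 30 brightest genes differed 1.14-fold between rank 1 and rank 30, and for 29 of them the order against the next gene was reversed or tied on at least 1 array. They lie near the highest signals of the arrays, 71746 and 71759, and the 3 probes of EEF1A1 all read between 67718 and 70288. Whether signal still rises with transcript amount at this upper end was not tested, so the narrow span does not show similar amounts of transcript. Rank 1 and rank 100 were 2.15-fold apart, and 90 of the 100 brightest genes of replicate 1 were among the 100 brightest of replicate 2. Within the 30, ACTB had the ranks furthest apart, 37 on replicate 1 and 7 on replicate 2. Ribosomal protein genes, tubulins and actins have near-identical copies and pseudogenes, so a signal credited to one of them can include others.

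**Figure D2:**
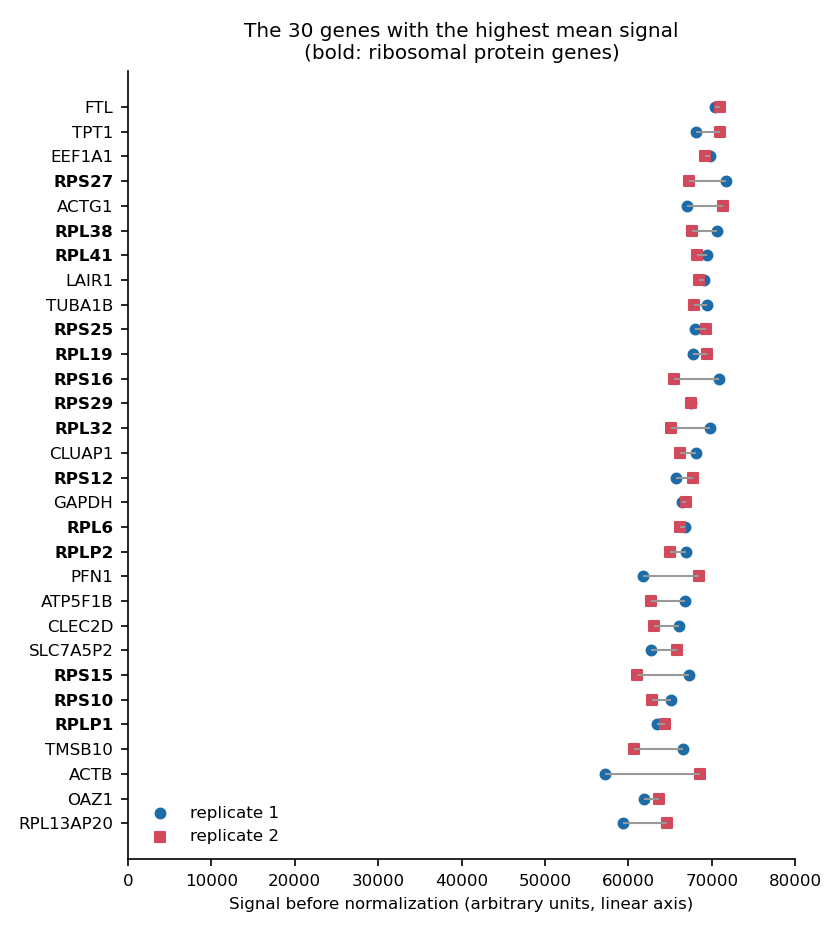
Signal before normalization (horizontal axis, linear, arbitrary units) of the 30 genes with the highest mean signal, from rank 1 at the top, on untreated replicate 1 (circles) and replicate 2 (squares), with ribosomal protein genes in bold. The values lie between 57252 and 71746, and the distance between arrays often exceeds that between neighbouring genes.

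By the same symbol pattern 78 ribosomal protein genes had a probe. Of these 73 were detected (93.6%), against 40.0% of all genes, with a median mean signal of 35056. The exceptions included RPL10 at 141 and 153, RPL22L1 at 138 and 147 and RPL3L at 145 and 151, which were detected on 0 of the 12 arrays. RPL37, at 280.3 and 307, was the dimmest of those detected. Transcripts of the translation machinery are known to begin with a terminal oligopyrimidine (TOP) stretch, a C followed by further C or T, through which their translation is regulated. The stretch is shown for genes of the 10 brightest, as the 40 bases before and the 15 bases from the annotated start, read from RefSeq (GRCh38.p14). They are TPT1 (chr13:45341169-45341223, minus strand), EEF1A1 (chr6:73521018-73521072, minus strand), RPS27 (chr1:153990722-153990776, plus strand), RPL38 (chr17:74203638-74203692, plus strand), RPL41 (chr12:56116593-56116647, plus strand) and RPS25 (chr11:119018329-119018383, minus strand). FTL (chr19:48965269-48965323, plus strand) and LAIR1 (chr19:54364917-54364971, minus strand) are set beside them; ACTG1 and TUBA1B had no such run either and are not printed. Capitals mark the run of C and T from its first matching C, and none are set where no such run began within 3 bases of the start.
TPT1: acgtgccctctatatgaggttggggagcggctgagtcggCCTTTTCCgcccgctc
EEF1A1: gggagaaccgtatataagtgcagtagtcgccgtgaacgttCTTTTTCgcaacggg
RPS27: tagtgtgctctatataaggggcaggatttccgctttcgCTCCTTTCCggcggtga
RPL38: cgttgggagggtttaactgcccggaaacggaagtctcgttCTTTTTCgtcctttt
RPL41: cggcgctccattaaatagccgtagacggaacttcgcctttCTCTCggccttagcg
RPS25: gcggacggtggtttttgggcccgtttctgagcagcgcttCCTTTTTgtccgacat
FTL: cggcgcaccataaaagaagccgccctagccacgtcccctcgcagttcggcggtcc
LAIR1: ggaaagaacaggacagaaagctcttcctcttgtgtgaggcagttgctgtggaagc

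In this letter search a match was a C followed by at least 4 bases of C or T, beginning within 3 bases of the start on the gene's own strand. It was found in 46 of the 62 detected ribosomal protein genes with a promoter in the table (74.2%), in 12 of 26 of the 30 brightest genes, in 15.2% of the promoters of detected genes and in 13.1% of all 27305 promoters. Promoters were held for 6310 of the 7539 detected genes (83.7%). They were mostly rich in CpG. A ratio of observed to expected CpG of at least 0.6 over the 300 bases was found in 87.0% of them, against 49.0% of all promoters in the table. The letters CCGGAA on either strand, the core bound by ETS factors, were in 33.5% against 17.6%, and in 58.1% of the ribosomal protein promoters. The letters TATAAA on either strand were in 5.12% against 12.0%. All 27305 promoters include those of genes without a probe, since 14867 genes with a probe had a promoter among them. The shares of all promoters are thus not shares of the genes that were not detected. These are matches of letters in a window and not measured sites.

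By type of gene, 7392 of 17330 protein-coding genes were detected (42.7%), 73 of 350 pseudogenes (20.9%) and 35 of 1058 long non-coding RNA genes (3.31%). The share over all genes was 40.0%. Small nucleolar RNA genes, which guide chemical changes of ribosomal RNA, were detected in 32 of 59 cases (54.2%).

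The markers of Hodgkin cells were detected in part, with 29 of 42 genes (69.0%) against 40.0% of all genes. At p below 0.001 TNFRSF8, CD70, CD274, EPS8, GATA3, TRAF1 and TUBB2A were lost from them. With all probes of a gene required FUT4, IL2RA, PRDM1, TRAF1 and TUBB2A were lost. TNFRSF8 itself, which encodes CD30, had a signal of 333 and 299 on replicates 1 and 2, close to the detection limit, and rank 7079 of 7539. Its single probe was detected on 11 of the 12 arrays, and at the stricter threshold of p below 0.001 it was not detected on both untreated arrays. Signal at a probe does not give the amount of receptor protein. The transferrin receptor TFRC (CD71) had 26960.4 and 26733. The interleukin-2 receptor alpha chain IL2RA (CD25) had 2803 and 2938, and FUT4, which makes the CD15 sugar epitope, had 2041 and 1801. The other probe of each was not detected, at 171.4 and 160.1 for IL2RA and 150.3 and 192.5 for FUT4. Costimulatory CD86 was at 5771 and 6902 and the activation marker CD83 at 977 and 1041, while the CD27 ligand CD70 (265 and 317) and the checkpoint ligand CD274 (PD-L1, 323 and 271) stood near the limit. CD40, CD80, PDCD1LG2, ICAM1 and CD44 were not detected.

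Of the nuclear Hodgkin genes 11 of 12 were detected (91.7%), against 40.0% of all genes. BATF3, an AP-1 factor known from Hodgkin and anaplastic lymphoma cells, had 17459 and 22895. The helix-loop-helix repressors MSC (ABF-1) and ID2, known to silence B cell genes, had 6251 and 6791 for MSC and 10915 and 8448 for ID2. MYC was at 9917 and 9505, and the plasma cell regulators PRDM1 and IRF4 were at 7971 and 6901 for PRDM1 and 3215 and 2587 for IRF4. IRF5, an interferon regulatory factor, was at 2346 and 3937 and thus higher on replicate 2. GATA3 was near the limit at 269.7 and 283, and REL, at 175 and 173, was the factor not detected.

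Among secreted and cytoplasmic Hodgkin genes 9 of 16 were detected (56.2%), against 40.0% of all genes. LGALS1, whose galectin dampens T cells, had 18274 and 18394, the protease inhibitor TIMP1 10063 and 13286 and the actin bundler FSCN1 4321 and 4234. The chemokine CCL5 had 2722 and 2919.5. CCL17 and CCL22, the chemokines that attract T helper 2 and regulatory T cells, were not detected, with 138 and 118 for CCL17 and 143 and 137 for CCL22. The interleukin genes IL5, IL6 and IL13 were likewise not detected.

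Genes that are recurrently mutated, gained or lost in Hodgkin lymphoma were detected in 18 of 21 cases (85.7%), against 40.0% of all genes. They include the NF-kB inhibitors NFKBIA at 3371 and 4276 and TNFAIP3 at 1553 and 1671, the JAK-STAT inhibitors SOCS1 at 3323 and 4247 and PTPN1 at 3689 and 3946, and the nuclear exporter XPO1 at 7980.3 and 10011. B2M, the light chain of MHC class I, had 44817 and 45486. The 3 that were not detected were REL, CIITA at 239.8 and 254, just under the limit, and CSF2RB. Detection on an array says nothing about the sequence of the gene. Of 25 genes around the 9p24 band, a segment often gained in this lymphoma, 11 were detected (44.0%), a share near that of all genes, and 7 at p below 0.001. JAK2 had 370.5 and 382, RCL1 956 and 1133 and AK3 2669 and 2740.4, while the neighbouring PDCD1LG2 had 152 and 116 and was not detected.

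Of the CD3 complex chains with a probe CD247 alone was detected. In the T cell list 16 of 51 genes were detected (31.4%), a share near the 40.0% of all genes. CD247, the zeta chain of the receptor complex, had 6707 and 8839.9 and CD4 had 1267 and 1304. CD3D, CD3E and CD3G, the other chains of the complex, had 133 and 151 for CD3D, 147 and 146 for CD3E and 156 and 156 for CD3G, and none of the 3 was detected on any of the 12 arrays. CD8A, CD5, CD7 and CD28 and the receptor kinases LCK and ZAP70 were not detected either. CD2 stood near the limit at 313 and 345. The interleukin-7 receptor IL7R was at 1805 and 1684, protein kinase C theta (PRKCQ) at 4422 and 3908 and the factor RUNX3 at 4823 and 4941. The other RUNX3 probe, at 152.5 and 158.1, was not detected. TOX and EOMES were detected on both untreated arrays but on only 6 and 7 of the 12 arrays.

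Cytotoxic genes were few, with 4 of 24 detected (16.7%), against 40.0% of all genes. All 4 were detected on all 12 arrays. Granzyme B (GZMB) had 6473 and 7343, and the granule membrane gene NKG7 had 12515 and 13476. TIA1, an RNA-binding protein of cytotoxic granules that many cell types also make, had 3072 and 2956, and SRGN, the granule proteoglycan, had 6281 and 5549.8. The other granzymes, perforin (PRF1, 147 and 119.7) and granulysin (GNLY, 113 and 142) were not detected, nor were the natural killer receptors of the KLR family.

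In the B cell list 11 of 41 genes were detected (26.8%), against 40.0% of all genes, and 0 of 7 of the antigen receptor group. CD79A and CD79B, the signalling chains of the B cell receptor, had 169.7 and 186 for CD79A and 127 and 168 for CD79B, and CD20 (MS4A1) had 168 and 146. The factors PAX5 (121 and 155), EBF1 (197 and 226) and the coactivator POU2AF1 (159 and 161) were not detected. The surface genes FCER2 (CD23) at 289 and 312 and TNFRSF13C (the BAFF receptor) at 284 and 276 were detected close to the limit. Signalling genes were split. The Src family kinases LYN and BLK had 2452 and 2582 for LYN and 1197 and 1266 for BLK, and phospholipase PLCG2 had 755 and 761, whereas the kinases SYK and BTK and the adaptor BLNK were not detected. Of the factors of late B cells, XBP1, which drives the secretory apparatus, had 11356 and 11307, and BCL6, the germinal centre repressor, had 592 and 781. The plasma cell genes SDC1, CD38 and TNFRSF17 were not detected.

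Markers of other cell types were detected at shares below the 40.0% of all genes. In the monocyte, macrophage and granulocyte list 3 of 23 genes were detected (13%), namely the receptor CSF1R at 954 and 954, CD68 at 428 and 479 and ITGAX at 306 and 365, while CD14, LYZ, SPI1 and MPO were not. The dendritic cell list had 3 of 12 (25%), BATF3, the homing receptor CCR7 at 17095 and 20105 and FSCN1, and its defining CLEC9A, CD1C and CLEC4C were not detected. Erythroid and endothelial markers were detected in 0 of 10 and 0 of 8 genes. Fibroblast, epithelial and other tissue markers each had 1 gene, of 11, 9 and 17, and these were PDGFRA at 320.0 and 339, MUC1 at 632 and 674 and MBP at 3838 and 4710.5. The summed signal of the 11 fibroblast genes was 1751 on replicate 1 and 1796 on replicate 2, that of the 9 epithelial genes 1716 and 1773, and that of the 23 myeloid genes 4632 and 4838. The myeloid count was 5 at p below 0.05 and 1 with all probes required, and with all probes required the fibroblast, epithelial and other tissue counts were 0. Both arrays come from cultures of a single line, and bulk RNA does not show if a marker's signal comes from few of its cells or from all.

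**Figure D3:**
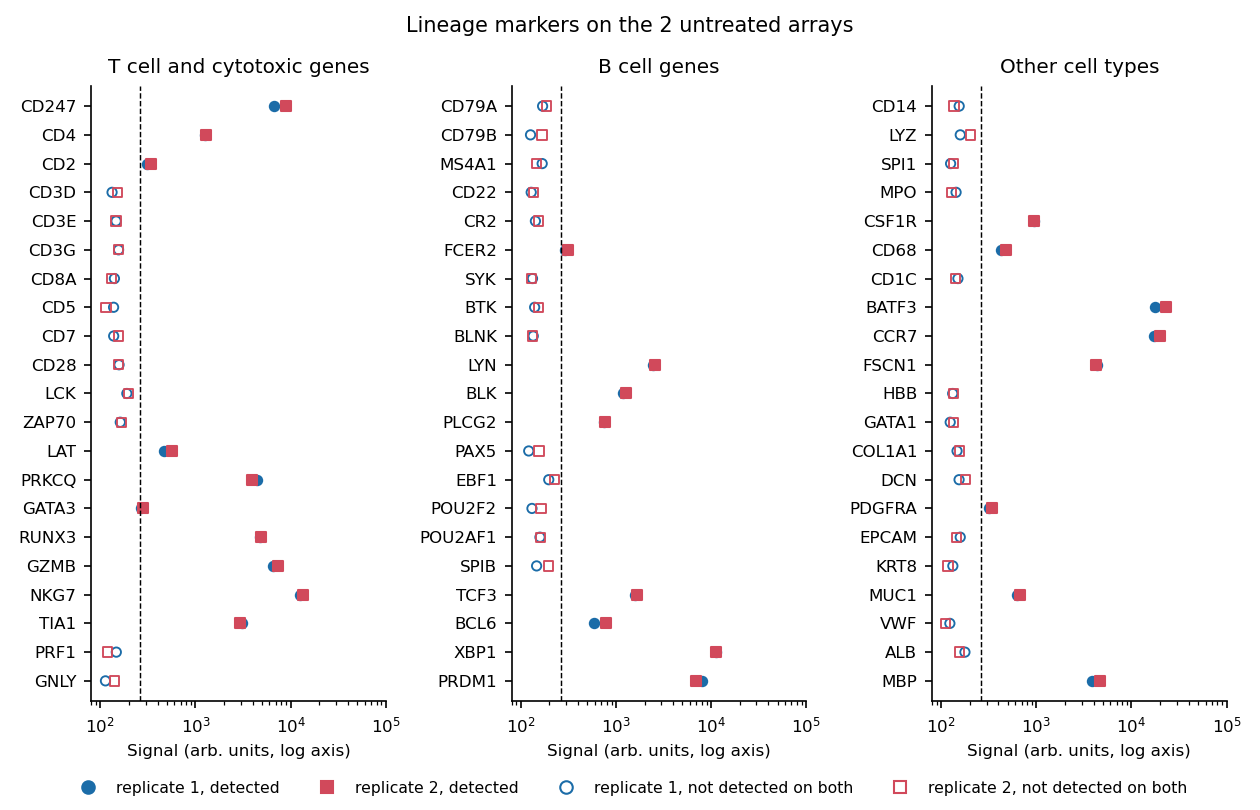
Signal before normalization (horizontal axes, logarithmic, arbitrary units) of selected T cell and cytotoxic genes, B cell genes and markers of other cell types on untreated replicate 1 (circles) and replicate 2 (squares), filled where the gene was detected on both arrays and open where it was not. The dashed line is the lowest detected signal of replicate 2, 263.6; CD3D, CD79A and PAX5 lie left of it and CD247, GZMB and XBP1 right of it.

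Of 28 receptors of the TNF family 9 were detected (32.1%), a share near the 40.0% of all genes, and with the threshold at p below 0.001 the count was 2. Those 2 were the TRAIL receptor TNFRSF10B at 4138 and 3909.9 and TNFRSF14 (HVEM) at 1182 and 1606, with FAS at 405 and 499.7 and TNFRSF9 (4-1BB) at 377 and 328 among the others. Of 17 ligands 8 were detected (47.1%), likewise near the share of all genes, with 4 at p below 0.001 and 5 with all probes required. Lymphotoxin alpha (LTA) had 1196 and 1342, TNFSF14 (LIGHT) 812 and 891 and TNF 479.5 and 604. The CD30 ligand itself, TNFSF8, was not detected, at 130.5 and 145.

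Downstream of these receptors 13 of 16 TRAF adaptors and proximal signalling genes were detected (81.2%), against 40.0% of all genes. The count was 8 at p below 0.001 and 8 with all probes of a gene required. TRAF1 had 330.3 and 403, TRAF3 387 and 490.1 and TRAF5 959 and 1036, the last by 1 of its 5 probes. TRAF4 (269.6 and 241) missed the threshold on a single array. The ubiquitin ligase BIRC2 (cIAP1) had 2348 and 1936, and the kinase MAP3K14 (NIK), which starts the non-canonical NF-kB route, had 544 and 560.1. The death adaptor FADD was at 2989 and 3119.8.

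Of the NF-kB pathway 4 of 5 subunits (80%), 4 of 5 kinases (80%) and 13 of 15 inhibitors and regulators (86.7%) were detected, against 40.0% of all genes. NFKB1 (p105/p50) had 7488 and 7422, NFKB2 (p100/p52) 587 and 682, RELA 781 and 743 and RELB 407 and 392. REL was the subunit not detected. The IkB kinase genes CHUK, IKBKB and IKBKG were at 1189.6 and 1305 for CHUK, 607 and 679 for IKBKB and 2482 and 2656 for IKBKG, and IKBKE reached the threshold on replicate 2 alone. Among the inhibitors NFKBIB had 1052 and 877, NFKBIE 289 and 323, the atypical IkB proteins BCL3 1517 and 1446 and NFKBIZ 1118 and 1045, and the deubiquitinase CYLD 482 and 489.7.

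Several of these genes are known to be targets of NF-kB themselves. The 10-letter kB motif GGGANTTNCC, in which N is any base, was searched on both strands of each promoter from 250 bases before to 50 bases after the annotated start. It was found in 6 of the 18 NF-kB subunit, inhibitor and regulator promoters held in the RefSeq table (33.3%, 18 of 20 genes matched), against 1.54% of the promoters of detected genes and 1.41% of all promoters. A match is a description and not a bound site, and both a detected gene such as NFKB1 and REL, which was not detected, carry it. The matches are shown in capitals with the flanking bases (GRCh38.p14). They lie in BCL3 (chr19:44748690-44748732, plus strand), NFKB1 (chr4:102501290-102501339, plus strand), NFKBIA (chr14:35404801-35404850, minus strand), NFKBIZ (chr3:101827747-101827796, plus strand), REL (chr2:60881508-60881557, plus strand) and TNFAIP3 (chr6:137867172-137867221, plus strand).
BCL3: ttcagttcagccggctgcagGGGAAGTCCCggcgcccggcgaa
NFKB1: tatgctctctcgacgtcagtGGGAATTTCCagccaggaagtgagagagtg
NFKBIA: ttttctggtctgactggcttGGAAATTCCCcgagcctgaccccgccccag
NFKBIZ: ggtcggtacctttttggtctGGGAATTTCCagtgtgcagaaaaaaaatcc
REL: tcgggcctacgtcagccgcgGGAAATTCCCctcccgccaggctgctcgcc
TNFAIP3: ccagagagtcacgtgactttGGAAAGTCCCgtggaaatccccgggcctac
Counted from the start, the motif began at position -49 in NFKB1, -81 in NFKBIA, -223 in NFKBIZ, -46 in REL, -67 in TNFAIP3 and 3 in BCL3. In NFKBIA, REL, TNFAIP3 and BCL3 the letters of the motif read on the opposite strand.

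Of the JAK kinases 3 of 4 were detected (75%), against 40.0% of all genes. TYK2 had 4997 and 6682, JAK1 1503 and 1195 and JAK2 370.5 and 382, and JAK3, the partner of the common gamma chain, had 226 and 164 and was not detected. The STAT genes with a probe were detected in 5 of 5 cases, with STAT3 at 3885 and 4458, STAT4 at 735 and 734, STAT5A at 3845 and 3275, STAT5B at 2128 and 2219 and STAT6 at 2142 and 2551. Of 17 inhibitors and phosphatases 12 were detected (70.6%). The STAT-induced inhibitor SOCS2 had 5051 and 5322, SOCS3 548 and 658 and CISH 1743 and 2009.7. The phosphatase genes PTPN6 (SHP-1) at 137 and 171 and PTPRC (CD45) at 182 and 164 were not detected.

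Cytokine receptors were detected in 18 of 37 cases (48.6%), a share near the 40.0% of all genes, and in 11 with all probes of a gene required. The interleukin-2 receptor beta chain IL2RB had 7081 and 6655, while the common gamma chain IL2RG had 167 and 208 and was not detected. The interferon gamma receptor chains were at 1208 and 1095 for IFNGR1 and 7061 and 7817 for IFNGR2, and both chains of the interleukin-10 receptor were detected, with IL10RA at 3949 and 4409 and IL10RB at 1842 and 2003. IL4R had 1077 and 1384 and IL21R 1507 and 1733, and no other IL21R probe was detected. LIFR was near the limit, at 310.2 and 264, and was detected on 7 of the 12 arrays.

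Of 32 cytokine genes 8 were detected (25%), against 40.0% of all genes. The macrophage migration inhibitory factor MIF, made by many cells, had 27629 and 29108 and IL18, of the interleukin-1 family, 11095 and 14554. IL10 had 2955 and 3182, IL32 1577 and 1574 and OSM 896 and 1017. The other IL10 probe, at 126.5 and 142.9, was not detected. EBI3, a chain of heterodimeric interleukins, had 616 and 620.4 and IL12A 460.5 and 593. Interferon gamma, IL2, IL4 and IL17A were not detected.

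Chemokines were the sparsest of these families. CCL5 was the only one of 32 detected (3.12%), and 2 were with p below 0.05. Among chemokine receptors 3 of 17 were detected (17.6%), and 1 with all probes of a gene required. Both families were under the 40.0% of all genes. CCR6, the receptor of CCL20, had 38975 and 35089 by 1 of 3 probes, the lymph node homing receptor CCR7 had 17095 and 20105, and CXCR4 had 2662 and 2238. The T helper 2 receptors CCR4 and CCR8 were not detected.

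Antigen presentation genes of both MHC classes were detected. In class I 15 of 16 genes were detected (93.8%), against 40.0% of all genes, with the peptide transporter TAP1 at 16739 and 18767, HLA-B at 14989.6 and 15683 and the immunoproteasome subunit PSMB8 at 8146 and 8682. The chaperone PDIA3, at 124 and 136, was the gene not detected. In class II 13 of 17 were detected (76.5%), with HLA-DRA at 15304 and 18462, HLA-DPA1 at 13087 and 15297 and the invariant chain CD74 at 12218 and 13032. HLA-DPB1 was at 352 and 389, and HLA-DRB1 (139 and 163) and HLA-DRB5 were not detected. CIITA, the class II coactivator, was just under the limit as given above, and the DNA-binding factors RFX5, RFXAP and RFXANK were all detected. The HLA genes resemble each other, so the gene behind a signal is uncertain in this family.

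Costimulatory and checkpoint genes were detected in 8 of 18 cases (44.4%) and adhesion genes in 8 of 19 (42.1%), both near the share of all genes. At p below 0.001 the costimulatory and checkpoint count was 4. IL4I1, an amino acid oxidase that limits T cells, had 599 and 598 and the poliovirus receptor PVR 571 and 636. Of the integrins ITGB1 had 7597 and 8558, ITGB7 5403 and 5211 and ITGAE 1606 and 1336. ICAM2 had 6003 and 6911, in contrast to ICAM1 at 139 and 122, which was not detected. CD58, the CD2 ligand, had 1841 and 1569.

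Of the survival genes 8 of 10 were detected (80%) and of the death genes 8 of 17 (47.1%), the second share near the 40.0% of all genes. With all probes of a gene required the death genes detected were 4. BCL2L1 (BCL-XL) had 3282 and 3490.5, BCL2 2158 and 2044, MCL1 1013 and 1181 and the caspase-8 regulator CFLAR 630.5 and 842. BCL2A1, a known NF-kB target, missed the threshold at 252 and 252. The effector BAX had 2274 and 2579 and BAK1 347 and 319.7. Of the BH3-only genes PMAIP1 (NOXA) was detected at 1448 and 1364 and BAD at 1162 and 1432, whereas BBC3, BCL2L11, BID and BIK were not.

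AP-1 factors were detected in 11 of 15 cases (73.3%), against 40.0% of all genes, and in 7 with all probes of a gene required. Beside BATF3, JUND had 15128 and 13346, ATF4 17672 and 18182, JUNB 4103 and 3376 and JUN 2383 and 2615. FOS (134 and 153), FOSB and FOSL2 were not detected, and of the FOS group FOSL1 was detected at 371 and 316. MAPK genes were detected in 12 of 17 cases (70.6%). The kinases that act on ERK had 2071 and 2660.2 for MAP2K1 and 3497 and 4012 for MAP2K2. DUSP5, a feedback phosphatase of ERK, had 2941 and 3415, and DUSP6 (172 and 194) was not detected. PI3K-AKT genes were detected in 11 of 15 cases (73.3%), and in 4 with all probes required, with AKT1 at 12213 and 11483 and MTOR at 2624 and 2547.

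The Notch pathway had 4 of 16 genes detected (25%), against 40.0% of all genes, and 1 with all probes of a gene required. The 4 were the receptor NOTCH1 at 1120.4 and 1324, its DNA-binding partner RBPJ at 1020.4 and 958, MAML1 and HEY1. None of the ligands in the list was detected. Receptor tyrosine kinases that have been described in Hodgkin cells were detected in 4 of 15 cases (26.7%), CSF1R, MET at 455 and 405, PDGFRA and NTRK2, and 0 of them reached a mean signal of 1000. Their count was 1 at p below 0.001 and 2 with all probes required.

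Among lymphoid transcription factors 16 of 30 were detected (53.3%), against 40.0% of all genes. ETS1 had 8763 and 9743, MYB 6534 and 8329.8 and IKZF1 (Ikaros) 1606 and 1350.0, while IRF8, LMO2, TAL1 and NFATC1 were not detected. In the MYC network 6 of 10 genes were detected (60%), with MYC and its partner MAX at 716 and 863, and MYCN (169 and 163) and MYCL were not.

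Cell cycle genes were detected in 29 of 34 cases (85.3%), against 40.0% of all genes. Of the 29, 26 had a mean signal of at least 1000, a level that 54.4% of all detected genes reached. Cyclin D2 (CCND2) had 46061 and 47227, while cyclin D1 (CCND1) had 151 and 141 and was not detected. The replication helicase genes MCM2 to MCM7 were all detected, with MCM3 at 15955 and 19291. Mitotic genes included CDC20 at 10276 and 14039, AURKB at 7179.6 and 7580.5 and CDK1 at 7692 and 7643. The inhibitor CDKN1A (p21) had 4909 and 6672, and CDKN2A (154 and 145) was not detected.

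**Figure D4:**
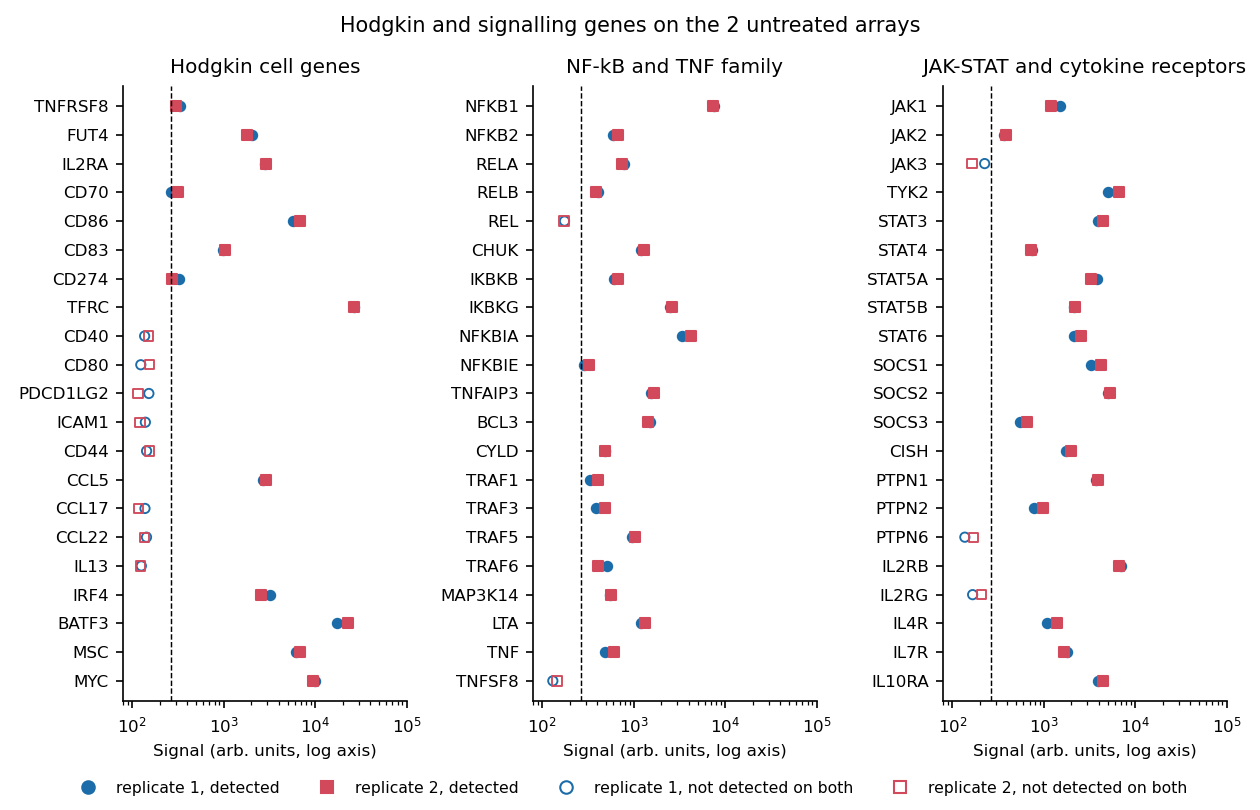
Signal before normalization (horizontal axes, logarithmic, arbitrary units) of selected Hodgkin cell genes, NF-kB and TNF family genes, and JAK-STAT and cytokine receptor genes on untreated replicate 1 (circles) and replicate 2 (squares), filled where detected on both arrays and open where not. The dashed line is 263.6; TNFRSF8 lies just right of it, and REL, JAK3, IL2RG and TNFSF8 lie left of it.

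**Figure D5:**
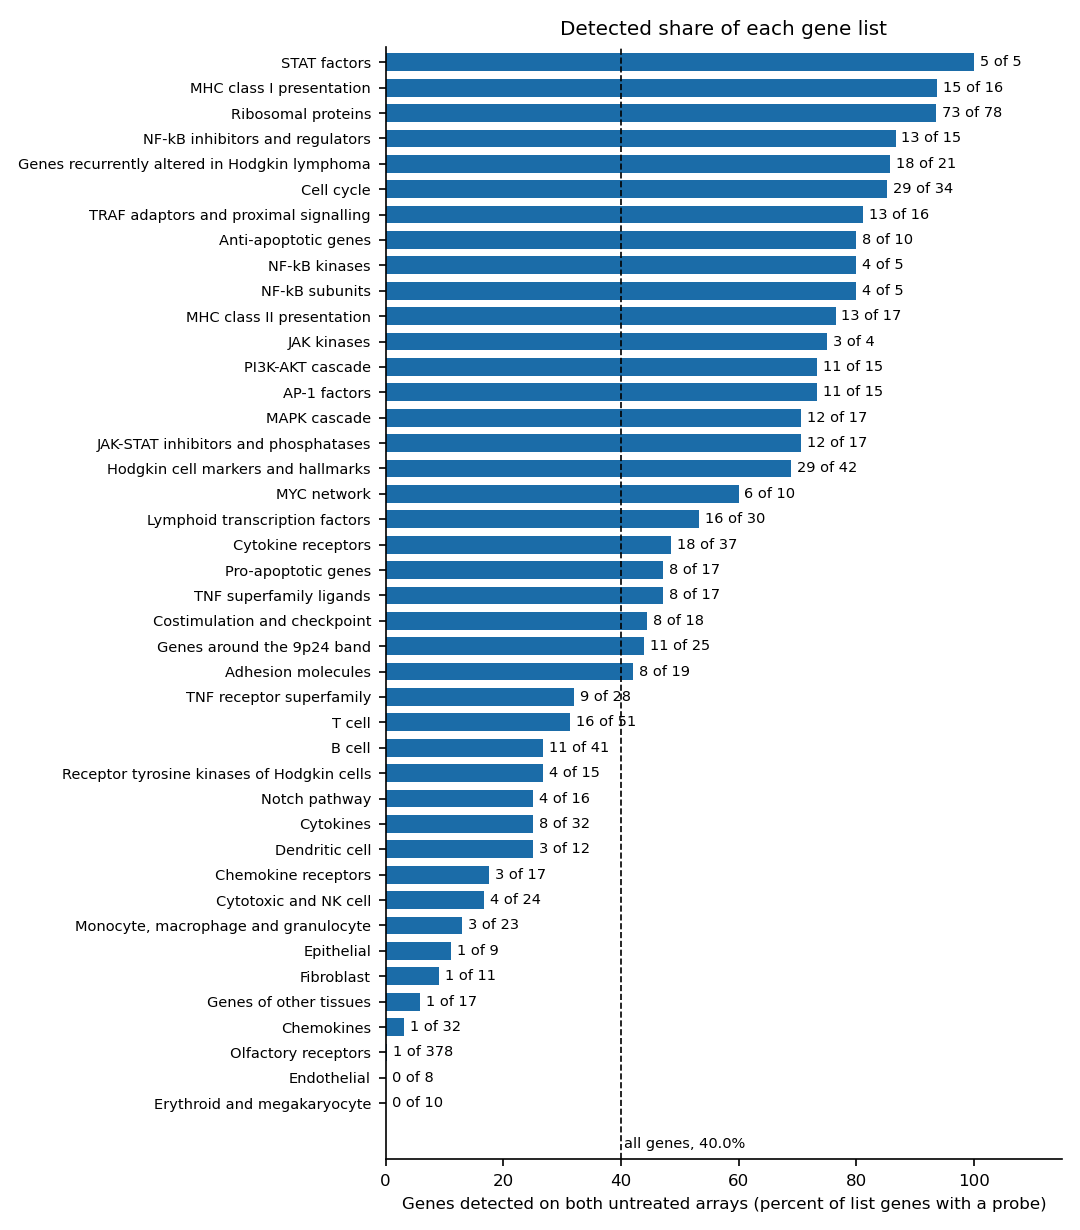
Share of the genes of each list that were detected on both untreated arrays, in percent of the list genes with a probe, with the counts beside the bars and the share of all genes (40.0%) as the dashed line. STAT, MHC class I and ribosomal protein genes stand at 93.6% or more, and chemokines, other tissue genes, olfactory receptors, endothelial and erythroid markers at 5.88% or less.

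Most of these genes were detected throughout the series. Of the 7539 genes detected on both untreated arrays 7186 (95.3%) were detected on all 12 arrays, and 0 were detected on the untreated arrays only. In the reverse direction 8 genes were detected on neither untreated array but on all other 10. A further 10249 genes were detected on none of the 12 arrays. In the list of Hodgkin genes 28 of 29 detected members were detected on all 12 arrays, the exception being TNFRSF8.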

How the data were processed

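The HumanHT-12 v3 BeadChip was read for total RNA labelled as biotinylated cRNA. The authors deposited a table before normalization with an intensity per probe and array. The detection p-value beside it, per the file headers one per probe, is read as a rank among negative control beads. Its smallest step, 0.00132, implies 759 such beads. A processed table of intensity on a linear scale was also deposited by the authors; its column medians of 138.9 to 139.0 show a normalization that the labels do not name. GenomeStudio is named in the submitters' processing notes and BeadStudio in the series text, and no version of either was given in the sources used here. The signal scale is arbitrary, and the number of arrays limits the precision.

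Of 48780 probes 28082 had 1 gene in the supplied annotation, 13 several and 20685 none, and 28043 symbols were updated by Entrez identifier (RefSeq, GRCh38.p14) while 39 were kept. A gene was taken as detected when any probe had p below 0.01 on both untreated arrays, and its brightest detected probe gave the signal, or its brightest probe where none was detected. A gene with several probes thus has several chances of detection. Nothing was tested between groups. The series text calls the duplicates biological, without saying what separated them.

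Named genes were the 30 brightest, members of 40 written gene lists, the 10 furthest apart between duplicates, 3 on each side of the threshold and TNFRSF8. Ribosomal protein and olfactory receptor genes were counted by symbol, and those named beyond the 30 brightest were chosen after their values were seen. Members and lists were chosen with earlier results of these data known. Of 752 list genes 695 had an annotated probe, and the other 57 are not analysed here. Alternatives were detection p below 0.05 or 0.001, 1 array alone, all probes of a gene, all probes of the table, the median probe, neqc values (limma 3.58.1, R 4.3.3, offset 16), the processed table and uncorrected log2 signal. The detection and ranking code was tested on simulated data.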

Additional observations from a re-analysis of the deposited data

How the results depend on the processing

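No paired analysis was possible because the results come from no test and 1 group is described. The 7539 detected genes became 8937 with a detection p below 0.05 and 6026 below 0.001, 7696 to 7763 on 1 array alone, and 5668 where all probes of a gene had to be detected. Of the 695 list genes 301 were detected, 351 and 239 at the looser and stricter p, 304 to 312 on 1 array and 219 with all probes. The call was the same under every one of these 5 alternatives for 521 of the 695. Among the lists, at p below 0.001 the TNF receptor family had 2 of 28 detected, and with all probes required PI3K-AKT genes were 4 of 15 and chemokine receptors 1 of 17; without replicate 1, 1 of 8 endothelial markers was detected. Of the 100 brightest genes all 100 were shared with the neqc ranking and with the processed table, 95 with either array alone and 93 with the median probe. The SD between untreated duplicates was 0.223 with the processed values and 0.275 with neqc, the widest of the 6 pairs in both. Without correction the root mean square of the log2 difference was taken, which keeps any shift between the arrays. It was 0.228 for the untreated pair and 0.259 for T427, whose duplicates had a median shift of -0.19 and an SD of 0.18 once it was removed. Detection on all 12 arrays held for 8384 and 5589 genes at p below 0.05 and 0.001, alternatives chosen after seeing the data. With 2 arrays, 221 genes were detected on replicate 1 alone and 154 on replicate 2 alone. For a gene not detected, none of its probes passed p below 0.01 against the negative beads on both arrays. At that p the lowest detected signal was 253.4 on replicate 1 and 263.6 on replicate 2. This bounds the signal of the probes, and gives neither a level nor a bound for the transcript. Of 2958 detected genes with more than 1 probe, 1871 also had a probe that was not detected.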

Other observations

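Probes of the same gene often disagreed. Of 6128 genes with more than 1 probe 2958 were detected by at least 1 of them, and in 1871 of these (63.3%) at least 1 further probe was not detected. The median ratio of the brightest to the dimmest probe was 3.81, and 47 genes had a ratio of at least 100. Among the 100 brightest genes 62 had more than 1 probe, and in 10 of these only 1 probe was detected. They were LAIR1, CLUAP1, SLC7A5P2, F2R, RPS26P11, SNRPD2, ITIH5, FARSB, CCR6 and TUBA3FP, chosen for mention after their values were seen.

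For LAIR1 the bright probe had 69030.0 and 68434 on replicates 1 and 2, and the other probe 122.5 and 171.1. For the thrombin receptor F2R the probes had 59842 and 64056, and 129.0 and 136.2. For ITIH5, a hyaluronan-binding protein gene, 1 of 5 probes had 46758 and 47118, and the other 4 lay between 122.7 and 154.2. For CCR6 the bright probe had 38975 and 35089, and the other 2 probes lay between 133.7 and 160.5. Whether these probes report other transcripts was not tested. The brightness of these genes rests on single probes.

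Of the 20698 probes without exactly 1 gene in the annotation 1362 were detected on both untreated arrays, and they are not named here.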
